A study of Homo sapiens with 40 samples.

Results

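H3K27me3 was compared between 2 libraries of NSD2-dTAG clone 8 at day 7 of dTAGV-1 treatment and 2 libraries of the same clone at day 0. These 4 libraries, chosen by their titles, were 4 of the 40 samples of the series, of which 30 were H3K27me3 libraries in 15 groups of 2. The 30 also include later days of dTAGV-1 treatment, 2 clones with NSD2 knocked out and the parental line of these knockout clones. The assay was CUT&Tag, which sequences the DNA that an antibody-guided transposase releases from chromatin around the mark. The unit of measurement was the peak list that the authors deposited for each library.

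KMS-11 cells were used, a line from human multiple myeloma whose t(4;14) translocation drives high NSD2. Clone 8 carries an NSD2_dTAG knockin, so its NSD2 protein bears a tag. The day 7 group received 100 nM dTAGV-1, which brings tagged protein to a ubiquitin ligase for degradation, for 7 days. The day 0 group was the same tagged clone without the compound. Clone 8 is 1 clone, so differences between days were measured within a single clonal background. Clone 11, a second clone with the same knockin, and the untagged dTAG parental line, each with 2 libraries at day 7 and 2 at day 0, were used for comparison. The labels give no dose for the parental line. Each library began with 50000 nuclei and 13 PCR cycles. The series text calls the clone replicates biological.

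NSD2 writes H3K36me2, a mark of active and intergenic euchromatin. H3K27me3 is written by Polycomb repressive complex 2 (PRC2), typically at CpG-rich promoters of silent developmental genes, and PRC2 acts poorly on a histone tail that already carries H3K36 methylation. The series addresses how H3K27me3 is redistributed when NSD2 is lost.

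Every library's list was turned into the percent of each protein-coding gene body, or of each 25-kb autosomal window (bin), that lay inside peaks. These percentages are called coverage here, and differences are in percentage points. Of 19451 protein-coding genes of at least 1 kb, 13977 had a mean coverage of 1% to 99% over the 30 libraries and were tested. Of 114949 bins, 48607 passed the same filter and were tested. The 30 libraries include treated and knockout ones, so features without coverage at day 0 could pass the filter through those libraries. Gained and lost mean higher and lower coverage at day 7 with an adjusted p under 0.05 in limma. Build hg38 was used throughout.

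At day 7 the mark was called over more of the genome. The called length was 96.1 and 110 Mb in the day 7 libraries, against 69.9 and 36.1 Mb in the day 0 libraries. The 2 groups did not overlap. On average the day 7 libraries covered 103 ± 9.89 Mb and the day 0 libraries 53.0 ± 23.9 Mb (SD, n = 2 each), 1.95 times as much at day 7. By an exact permutation test, two-sided, p was 0.333, the lowest value possible with 2 against 2 libraries. The lists held 124652 and 117709 peaks at day 7, against 63035 and 34740 at day 0. The median peak was 553 and 697 bp wide at day 7 and 778 and 743 bp wide at day 0, so the longer lists were made of more and narrower peaks.

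Depth also differed between the libraries. Estimated background pileup, in fragments per position, was 1.81 and 2.35 at day 7, against 2.31 and 0.922 at day 0, and these groups overlapped. Day 0 replicate 2 was the shallowest of the 4 libraries. Per unit of pileup, the day 7 lists covered 53.2 and 46.8 Mb and the day 0 lists 30.3 and 39.1 Mb, a ratio of means of 1.44. Day 7 replicate 2 and day 0 replicate 1 had nearly equal pileup (ratio 1.02), and their called lengths differed by a ratio of 1.58. This pair sets a replicate 2 against a replicate 1, and replicate 1 held more peaks in 15 of 15 groups. Day and replicate number therefore cannot be told apart in this pair of like pileup. Peaks with a -log10 q of at least 5 covered 21.8 and 18.0 Mb at day 7, against 33.5 and 7.36 Mb at day 0. In these strongest peaks the groups overlapped, and the difference in means was -0.503 Mb (exact permutation p = 1).

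**Figure D1:**
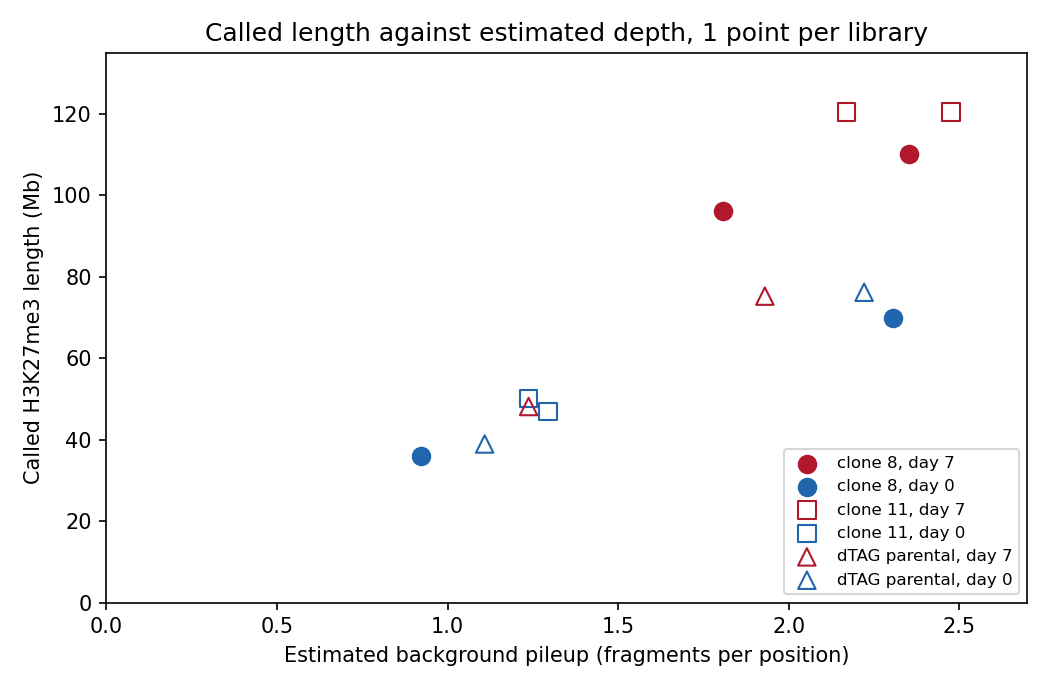
Called H3K27me3 length (Mb) against estimated background pileup (fragments per position), 1 point per library, for clone 8, clone 11 and the dTAG parental line at day 7 and day 0. The 2 clone 8 day 7 libraries (96.1 and 110 Mb) lie above the day 0 library of like pileup (69.9 Mb).

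Peaks were next compared by overlap, which depends on the length of the list searched. Averaged over the 4 pairs of libraries, 34.3% of day 7 peaks overlapped a day 0 peak by at least 1 bp, and 83.1% of day 0 peaks overlapped a day 7 peak. The range over pairs was 25.2% to 44.0% for day 7 peaks and 78.8% to 86.1% for day 0 peaks. Within day 7, 65.2% of replicate 1 peaks overlapped replicate 2 and 66.5% the other way. Within day 0, 48.1% of replicate 1 peaks overlapped the shorter list of replicate 2, and 87.0% of replicate 2 peaks overlapped replicate 1. The share of the called length inside protein-coding genes was 46.2% and 45.5% at day 7, against 52.4% and 53.3% at day 0. These groups did not overlap and differed by -6.94 points (exact permutation p = 0.333, the smallest possible). In clone 11 the same share was 45.4% and 45.2% at day 7 and 53.0% and 53.2% at day 0, and in the dTAG parental line it was 51.3% and 51.9% at day 7 and 51.1% and 52.2% at day 0.

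Promoters show which sequences the mark occupied. RefSeq (GRCh38.p14) gave a 300-bp window, 250 bp before to 50 bp after the gene start, for 15412 of the 19451 genes, and 15410 of these had no undetermined base. A promoter counted as inside a peak when at least 50% of it was covered. There were 9141 and 9203 such promoters at day 7, against 8817 and 6180 at day 0, so the day 7 libraries exceeded the deeper day 0 library by few. Promoters inside peaks in all 4 libraries numbered 5739 (37.2%) and held a median of 29 CG dinucleotides, the letters C and G in that order. Another 570 (3.70%) were inside peaks in both day 7 libraries and neither day 0 library, with a median of 21 CG. Only 49 (0.318%) were inside peaks in both day 0 libraries and neither day 7 library, with a median of 22 CG. The 5074 promoters inside peaks in none had a median of 7 CG, and all 15410 a median of 22 CG, with at least 1 CG in 98.4% of them.

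Examples of 4 of these patterns follow, each as the gene's strand reads 5′ to 3′, with every CG in capitals. HOXA13 (chr7:27200042-27200341, minus strand), a limb and urogenital patterning factor, was inside peaks in all 4 libraries and holds 44 CG. HTR3C (chr3:184052797-184053096, plus strand), a serotonin receptor subunit gene, was inside peaks at day 7 only and holds 3 CG. ZNF134 (chr19:57613992-57614291, plus strand), a zinc finger gene, was inside peaks at day 0 only and holds 21 CG. FABP1 (chr2:88128013-88128312, minus strand), the liver fatty acid-binding protein gene, holds 7 CG, and its promoter was outside peaks in all 4 libraries although its gene body was a large gain.
HOXA13: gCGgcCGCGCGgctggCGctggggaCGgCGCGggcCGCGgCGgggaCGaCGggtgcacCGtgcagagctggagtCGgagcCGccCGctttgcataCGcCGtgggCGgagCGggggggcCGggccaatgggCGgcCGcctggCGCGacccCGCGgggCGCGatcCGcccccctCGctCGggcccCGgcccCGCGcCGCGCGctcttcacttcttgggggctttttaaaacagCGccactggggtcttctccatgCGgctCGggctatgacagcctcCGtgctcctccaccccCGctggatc
HTR3C: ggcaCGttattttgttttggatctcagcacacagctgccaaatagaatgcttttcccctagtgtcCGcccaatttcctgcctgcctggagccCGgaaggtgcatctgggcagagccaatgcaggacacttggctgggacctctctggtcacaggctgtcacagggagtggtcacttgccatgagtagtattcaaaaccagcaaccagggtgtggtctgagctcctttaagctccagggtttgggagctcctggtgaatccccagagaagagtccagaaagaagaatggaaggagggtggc
ZNF134: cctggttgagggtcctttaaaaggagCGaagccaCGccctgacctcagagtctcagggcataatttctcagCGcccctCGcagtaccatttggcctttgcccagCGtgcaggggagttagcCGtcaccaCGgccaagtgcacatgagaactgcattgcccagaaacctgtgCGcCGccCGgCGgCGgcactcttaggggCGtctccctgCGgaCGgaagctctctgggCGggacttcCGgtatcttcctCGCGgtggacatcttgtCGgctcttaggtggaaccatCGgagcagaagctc
FABP1: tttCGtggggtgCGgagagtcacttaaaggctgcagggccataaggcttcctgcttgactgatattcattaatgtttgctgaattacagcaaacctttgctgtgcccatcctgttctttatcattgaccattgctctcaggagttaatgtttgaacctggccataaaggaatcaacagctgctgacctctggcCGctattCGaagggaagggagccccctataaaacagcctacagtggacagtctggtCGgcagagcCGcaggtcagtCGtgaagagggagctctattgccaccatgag

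The HTR3C promoter window was 62.3% and 60.7% covered at day 7, against 0% in both day 0 libraries. The ZNF134 window was 0% covered in both day 7 libraries, against 100% in both day 0 libraries. When promoters were ranked by CG count, the lowest of 4 groups (0 to 9 CG) had 18.0% and 18.9% inside peaks at day 7, against 14.2% and 6.83% at day 0. The highest group (33 to 69 CG) had 82.6% and 82.5% at day 7, against 83.1% and 61.8% at day 0. In the second group (10 to 22 CG) the shares were 58.3% and 58.9% at day 7, against 55.1% and 36.9% at day 0, and in the third (23 to 32 CG) 80.03% and 80.2% at day 7, against 78.4% and 56.4% at day 0. The days overlapped in the group with most CG and were apart in the other 3. Promoters inside peaks at day 7 only numbered 139, 193, 159 and 79 in the 4 groups, low to high CG. Of 8 promoters of housekeeping genes such as GAPDH and ACTB, chosen after the promoter values were seen, 7 and 7 were inside peaks at day 7 and 6 and 2 at day 0. Of all 15410 promoters, 59.3% and 59.7% were inside peaks at day 7, against 57.2% and 40.1% at day 0. Peaks in these lists thus also lay over promoters of genes that are active in nearly every cell type. Libraries for H3K4me3, H3K27ac and IgG were not analysed here.

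Gains far outnumbered losses among gene bodies. In limma, 186 genes (1.33% of those tested) were gained and 5 (0.0358%) were lost, and without adjustment 2402 (17.2%) were higher and 122 (0.873%) lower at p under 0.05. Both day 7 libraries lay above both day 0 libraries in 5612 genes (40.2% of those tested), and below them in 788 (5.64%). The median change over all tested genes was 1.46 points, and 74.4% of them changed in the positive direction. When coverage was divided by each library's called length, 1004 genes were higher and 1444 lower and the median change was -0.818 points. The direction of the genome-wide shift therefore depended on whether coverage was taken as listed or as a share of the list.

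The gained genes had a low median coverage at day 0. Their median coverage was 10.8% at day 7 and 0.518% at day 0, with a median change of 9.84 points. No coverage was listed in either day 0 library for 56 of the 186. The genes were called from these same values, so part of this contrast was set by the choice. Of the 186, 161 were called higher after division by called length and 185 with pileup as a covariate. Fewer were called in lists shortened to equal length (18), in the pair of libraries of like pileup (12), with gaps up to 3 kb joined (4), and among peaks with a -log10 q of at least 5 (0) or a fold of at least 4 (0). They were long, with a median length of 61.1 kb against 20.7 kb for all tested genes. The gained share was 0.620% of genes of 1 to 10 kb, 0.902% of those of 10 to 50 kb, 2.51% of those of 50 to 200 kb, 4.88% of those of 200 to 500 kb and 4.35% of those over 500 kb. In the same classes, short to long, the median change of tested genes was 1.31, 1.28, 1.85, 1.88 and 1.60 points. It varied less between classes than the gained share did. Mean coverage in genes of 200 to 500 kb was 4.97% at day 7 and 2.23% at day 0.

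These calls rested on all 4 libraries together with the pooled spread. Leaving out day 7 replicate 2 left 5 gained genes, leaving out day 0 replicate 1 left 4 and leaving out day 0 replicate 2 left 2, while leaving out day 7 replicate 1 gave 353. With only the 4 clone 8 libraries in the fit, 0 genes were gained and 0 lost at the adjusted threshold in limma.

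The 12 largest gains among called genes of at least 5 kb follow, each with its values by library. FABP1 (chr2:88122982-88128062) had 57.8% and 53.8% coverage at day 7, against 12.6% and 0% at day 0, a difference of 49.5 ± 9.76 points (SE, limma adjusted p = 0.0265). FOLR2 (chr11:72216794-72221950), the folate receptor beta of macrophages, had 45.4% and 45.2% coverage at day 7, against 0% in both day 0 libraries. Its difference of 45.3 ± 3.49 points had the smallest adjusted p of all genes (limma, 3.31e-06). FOLR2 kept its call in each of the 4 fits that left out 1 clone 8 library. FABP1 lost it in all 4 (change 43.2 to 55.8 points).

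HTR3C had 29.9% and 40.4% coverage at day 7, against 3.54% and 0% at day 0 (limma adjusted p = 0.0385). HPCAL4 (chr1:39678648-39691433), a neuronal calcium-binding protein gene, had 43.5% and 52.8% at day 7, against 20.5% and 11.0% at day 0 (limma adjusted p = 0.0297). TMEM202 (chr15:72398305-72408367) had 18.8% and 32.5% at day 7, against 0% in both day 0 libraries (limma adjusted p = 0.0265). Groups that did not overlap were a condition of the naming rule. Among HTR3C, HPCAL4 and TMEM202 the day 7 replicates differed most in TMEM202.

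SAA4 and DEFB123 encode secreted proteins. SAA4 (chr11:18231355-18236802), a serum amyloid A protein gene of the liver, had 16.6% and 32.8% coverage at day 7, against 0% in both day 0 libraries (limma adjusted p = 0.0485). DEFB123 (chr20:31440632-31450257), a beta-defensin gene, had 14.3% and 27.9% at day 7, against 0% in both day 0 libraries (limma adjusted p = 0.0344). The DEFB123 gain was seen at a similar size in clone 11, where coverage was 15.1% and 30.0% at day 7 and 0% in both day 0 libraries.

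The other 5 of the 12 genes are known from lymphoid or myeloid cells. GIMAP7 (chr7:150514872-150521073), a lymphocyte GTPase gene, had 25.8% and 23.7% coverage at day 7, against 0% in both day 0 libraries (limma adjusted p = 0.0143). FCRL3 (chr1:157676481-157700956), an Fc receptor-like gene of B cells, had 27.2% and 38.2% at day 7, against 9.29% and 9.65% at day 0 (limma adjusted p = 0.0485). CTSS (chr1:150730188-150765778) encodes cathepsin S, a lysosomal protease of antigen-presenting cells. Its coverage was 25.5% and 20.8% at day 7, against 1.08% and 0.978% at day 0 (limma adjusted p = 0.0221). SH2D1B (chr1:162395268-162412136), an adaptor for SLAM-family receptors, had 20.6% and 28.2% at day 7, against 4.53% and 0% at day 0 (limma adjusted p = 0.0296). IL22 (chr12:68248242-68253604), a cytokine gene of T cells and innate lymphocytes, had 15.9% and 25.9% at day 7, against 0% in both day 0 libraries (limma adjusted p = 0.0265). The naming rule required day 7 libraries above both day 0 libraries in all 12 genes.

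**Figure D2:**
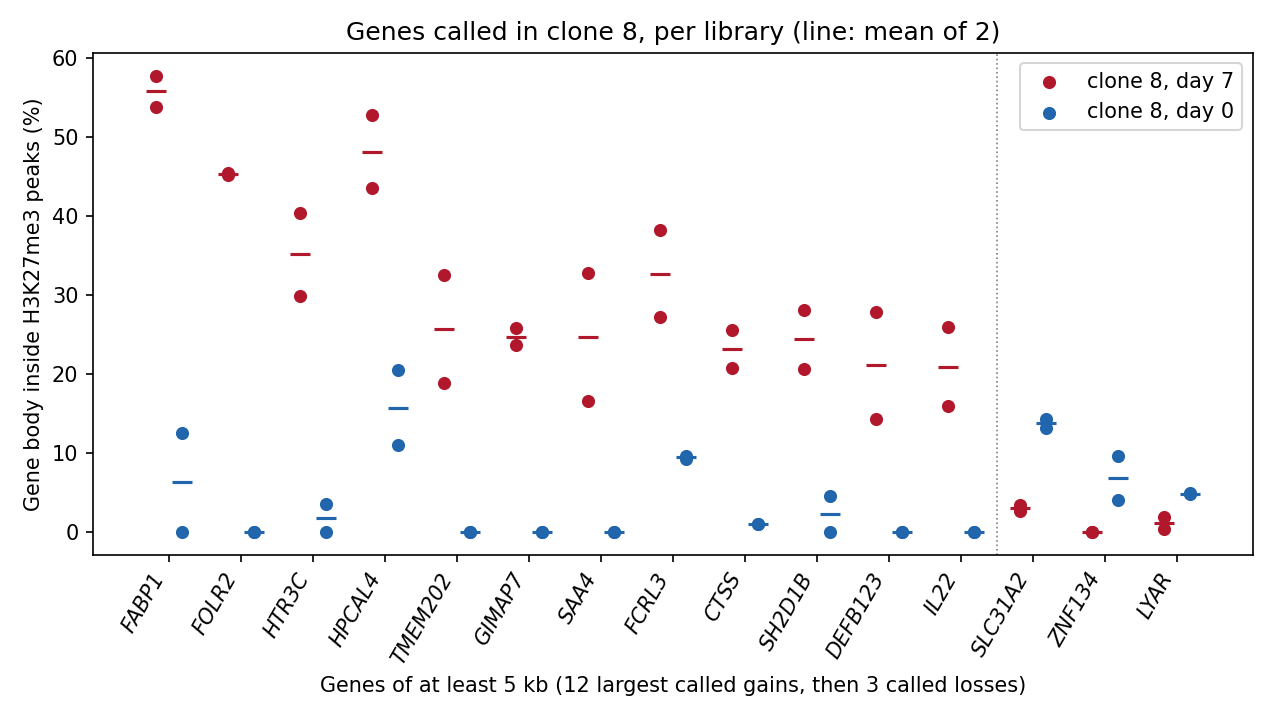
Percent of the gene body inside H3K27me3 peaks in each clone 8 library at day 7 and day 0, with a line at the mean of 2, for the 12 largest called gains and the 3 called losses among genes of at least 5 kb. FOLR2 replicates coincide at 45.4% and 45.2% at day 7, and day 7 lies below day 0 for SLC31A2, ZNF134 and LYAR.

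Losses were few. SLC31A2 (chr9:113151007-113164140), a copper transporter gene, had 2.63% and 3.47% coverage at day 7, against 14.3% and 13.2% at day 0, and fell by 10.7 points (limma adjusted p = 0.0265). ZNF134 (chr19:57614242-57624724) was 0% covered in both day 7 libraries, against 4.10% and 9.62% at day 0 (limma adjusted p = 0.0396). LYAR, a nucleolar growth regulator gene on chromosome 4, had 0.379% and 1.87% at day 7, against 4.82% and 4.95% at day 0 (limma adjusted p = 0.0296). The other 2 lost genes, both under 5 kb and named after their values were seen, were UQCRQ, a respiratory complex III subunit gene, and LOC124905444. UQCRQ had 10.2% and 2.72% at day 7, against 24.7% and 24.0% at day 0 (limma adjusted p = 0.0485). LOC124905444 was 0% covered in both day 7 libraries, against 29.5% and 47.8% at day 0 (limma adjusted p = 0.0459). All 5 kept the direction and the call after division by called length and with pileup as a covariate. In lists shortened to equal length 3 of the 5 were called and without the filter 2. None of the 5 was called in the pair of like pileup, with gaps joined, under the -log10 q or fold limits or when the 4 clone 8 libraries were fitted alone, and 0 or 1 was called when a clone 8 library was left out.

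NSD2 itself (chr4:1871393-1982192) had coverage of 0% in both day 7 libraries, against 0.236% and 0% at day 0. It was below the 1% mean needed for a test, and H3K27me3 peaks do not report the level of the degraded protein.

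Among all tested genes 1.33% were gained and 0.0358% lost, the background for the counts in every gene list. For counts at an unadjusted p under 0.05 (limma) the background was 17.2% higher and 0.873% lower. Of 14 PRC2 subunit genes, 8 were tested, with 0 gained and 0 lost (limma; 1 had an unadjusted p under 0.05) and a median change of 0.655 points. Among them, LCOR, a PRC2 accessory protein gene, had 1.77% and 2.15% coverage at day 7, against 0.509% and 1.30% at day 0 (limma adjusted p = 0.227). AEBP2, another accessory subunit gene, had 1.00% and 1.25% at day 7, against 0.85% and 0% at day 0 (limma adjusted p = 0.369). Of the tested genes for H3K36 methyltransferases and for H3K27 or H3K36 demethylases, 6 in number, 0 were gained and 0 lost (limma; 1 had an unadjusted p under 0.05), with a median change of -0.181 points. SETMAR, an H3K36 methyltransferase gene fused to a transposase, had 4.67% and 3.67% at day 7, against 1.34% and 0% at day 0 (limma adjusted p = 0.0904). KDM6B, an H3K27 demethylase gene, had 0.948% and 11.9% at day 7, against 10.5% and 13.9% at day 0 (limma adjusted p = 0.613), and these groups overlapped.

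HOX genes and developmental transcription factor genes are classical Polycomb targets. Of 39 HOX genes, which set body position, 35 were tested, with 0 gained and 0 lost (limma; 4 higher and 0 lower at unadjusted p under 0.05) and a median change of 4.36 points. The median became -8.82 points after division by called length and 0 in the pair of libraries of like pileup. HOXD13 had 27.9% and 26.4% coverage at day 7, against 5.97% and 5.57% at day 0 (limma adjusted p = 0.134). HOXA3 had 14.9% and 14.5% at day 7, against 10.6% and 6.03% at day 0 (limma adjusted p = 0.212). Neither passed the test, although their groups did not overlap.

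Of 117 tested developmental transcription factor genes, 1 was gained and 0 lost, beside 1.33% of all genes gained, with a median of 2.11 points. The gained gene was POU2F1, the broadly expressed octamer-binding factor, with 2.41% and 3.23% coverage at day 7, against 0.516% and 0.0208% at day 0 (limma adjusted p = 0.0284). The other named member, SOX30, a factor of male germ cells, had 6.29% and 3.55% at day 7, against 0% in both day 0 libraries (limma adjusted p = 0.0505). The list's median became -5.34 points after division by called length and -0.011 points in the pair of like pileup.

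Of 89 tested olfactory receptor genes, 1 was gained and 0 lost, beside 1.33% of all genes gained, with a median of 2.35 points. It was OR51E1, with 4.68% and 10.0% coverage at day 7, against 0% in both day 0 libraries (limma adjusted p = 0.0284). OR6Y1 had 10.0% and 9.41% at day 7, against 0% in both day 0 libraries (limma adjusted p = 0.0624). Of 72 potassium channel genes, 1 was gained and 0 lost, with a median of 2.47 points. It was KCNAB1, a channel beta subunit gene, with 9.57% and 12.4% at day 7, against 0.667% and 0.208% at day 0 (limma adjusted p = 0.0323). KCNC4 had 8.46% and 6.22% at day 7, against 1.51% and 0.00813% at day 0 (limma adjusted p = 0.101).

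Of 34 collagen genes, 1 was gained and 0 lost, with a median of 3.57 points. It was COL21A1, with 2.42% and 2.73% coverage at day 7, against 0% in both day 0 libraries (limma adjusted p = 0.0467). COL6A6 had 6.77% and 8.58% at day 7, against 0.46% and 0% at day 0 (limma adjusted p = 0.0502). The potassium channel and collagen medians became -4.83 and -0.559 points after division by called length, and the olfactory receptor median 1.07 points. In the pair of like pileup the potassium channel median was 0.0564 points, the collagen median 0.21 points and the olfactory receptor median 0 points. In 20 glutamate and GABA receptor genes, 0 were gained and 0 lost (limma; 5 higher and 0 lower at unadjusted p under 0.05), and the median was 1.425 points. After division by called length this median was -7.03 points, with 4 gained and 5 lost. GABRR1 had 6.46% and 6.89% at day 7 and 0% in both day 0 libraries (limma adjusted p = 0.0946), and GABRR3 had 5.397% and 5.30% at day 7 and 0% in both day 0 libraries (limma adjusted p = 0.121).

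Keratin and keratin-associated genes, of which 85 were tested, had 0 gained and 0 lost (limma; 5 higher and 0 lower at unadjusted p under 0.05) and a median of 5.78 points. Over all tested genes 17.2% were higher and 0.873% lower without adjustment. KRT222 had 11.8% and 5.99% coverage at day 7, against 0% in both day 0 libraries (limma adjusted p = 0.104). KRT40 had 9.50% and 3.01% at day 7, against 0% in both day 0 libraries (limma adjusted p = 0.206). The keratin median became -1.28 points after division by called length and 0 points in the pair of like pileup. Of 53 clustered protocadherin genes, which share exons, only 3 were tested and 0 were gained or lost (limma; 0 at unadjusted p under 0.05). PCDHGC5 had 3.26% and 1.11% at day 7 and 0% in both day 0 libraries (limma adjusted p = 0.717), and PCDHGC4, which overlaps it, had 2.79% and 0.948% at day 7 and 0% in both day 0 libraries (limma adjusted p = 0.718).

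Of 149 tested zinc finger genes of chromosome 19, 0 were gained and 1, ZNF134, was lost (limma; 2 higher and 9 lower at unadjusted p under 0.05), with a median change of -0.00783 points. The unadjusted shares over all tested genes were 17.2% higher and 0.873% lower. All 1240 tested genes of chromosome 19 had 0 gained and a median of -0.00323 points. After division by called length the median of the family was -2.64 points and 23 were lost. Both day 7 libraries lay above both day 0 libraries in 12.1% of the 149, against 40.2% of all tested genes. ZNF677 had 0% coverage in both day 7 libraries, against 10.4% and 5.60% at day 0 (limma adjusted p = 0.11). Of 216 promoters of this family, 121 and 108 were inside peaks at day 7, against 145 and 98 at day 0. Over all 15410 promoters the shares inside peaks were 59.3% and 59.7% at day 7, against 57.2% and 40.1% at day 0.

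Markers of plasma cells, the cell type of myeloma, and of other cell types were read as lists. Of 9 tested plasma cell genes, 0 were gained and 0 lost (limma; 1 higher and 0 lower at unadjusted p under 0.05), and the median was 1.31 points. SLAMF7, the surface receptor of plasma cells, had 47.0% and 55.8% coverage at day 7, against 36.8% and 28.0% at day 0 (limma adjusted p = 0.245). POU2AF1, a B lineage coactivator gene, had 1.38% and 2.45% at day 7, against 0% in both day 0 libraries (limma adjusted p = 0.547). IRF4, XBP1 and PRDM1, regulators of plasma cell identity, had at most 5.99% coverage in any of the 4 libraries. TNFRSF17, which encodes BCMA, and JCHAIN were at 0% in all 4. Over the 12 genes of this list the median coverage was 2.35% and 2.39% at day 7, against 2.66% and 0.991% at day 0. Of 9 promoters of the list, 8 and 6 were inside peaks at day 7, against 6 and 5 at day 0. The shares over all 15410 promoters were 59.3% and 59.7% at day 7, against 57.2% and 40.1% at day 0.

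Of 10 tested B cell genes, 0 were gained and 0 lost (limma; 0 at unadjusted p under 0.05), with a median of 2.01 points that became -6.52 points after division by called length. MS4A1, which encodes CD20, had 3.68% and 13.0% coverage at day 7, against 0% in both day 0 libraries (limma adjusted p = 0.291).

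Of 10 tested T cell genes, 2 were gained and 0 lost, beside 1.33% of all tested genes gained, and all 10 changed in the positive direction, against 74.4% of all tested genes. CD8A (chr2:86784605-86808396) had 17.2% and 18.3% coverage at day 7, against 3.85% and 2.53% at day 0 (limma adjusted p = 0.0419). Its neighbour CD8B (chr2:86815369-86861886), which encodes the other chain of the T cell coreceptor, had 4.87% and 3.90% at day 7, against 0% in both day 0 libraries (limma adjusted p = 0.0485). Of 7 promoters of the list, 5 and 2 were inside peaks at day 7, against 5 and 3 at day 0, so the promoter counts did not rise. Over all 15410 promoters the shares were 59.3% and 59.7% at day 7, against 57.2% and 40.1% at day 0. The list's median change was 6.16 points, 4.30 points after division by called length and 3.57 points in the pair of like pileup. In both of these settings 8 of the 10 were positive, and 0 were gained in the pair of like pileup. CD8A and CD8B lost their calls in all 4 fits that left out 1 clone 8 library (limma adjusted p 0.0659 to 0.297 for CD8A and 0.119 to 0.292 for CD8B).

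Of 9 tested myeloid genes, 0 were gained and 0 lost (limma; 1 higher and 0 lower at unadjusted p under 0.05), with a median of 9.35 points, 4.84 points after division by called length and 1.78 points in the pair of like pileup. LYZ, the lysozyme gene, had 16.7% and 5.94% coverage at day 7, against 0% in both day 0 libraries (limma adjusted p = 0.084). CSF1R, the macrophage growth factor receptor gene, had 10.0% and 18.3% at day 7, against 7.52% and 2.09% at day 0 (limma adjusted p = 0.333). Of 8 epithelial genes, 0 were gained and 0 lost (limma; 2 higher and 0 lower at unadjusted p under 0.05), with a median of 4.18 points. GRHL2 had 8.06% and 10.6% at day 7 and 4.09% and 2.94% at day 0 (limma adjusted p = 0.118), and ESRP1 had 10.7% and 6.09% at day 7 and 2.01% and 0.851% at day 0 (limma adjusted p = 0.16).

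Of 12 tested myeloma adhesion and chemokine receptor genes, 0 were gained and 0 lost (limma; 3 higher and 1 lower at unadjusted p under 0.05), with a median of 0.85 points. ITGA8, an integrin subunit gene, had 2.32% and 3.23% coverage at day 7, against 0.621% and 0.611% at day 0 (limma adjusted p = 0.0863). CD44, the hyaluronan receptor gene, had 10.2% and 10.4% at day 7, against 5.21% and 6.54% at day 0 (limma adjusted p = 0.222). Its change reversed to -2.59 points after division by called length.

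A larger share of bins than of gene bodies was gained, but the 2 units differ in size and in the set that passed the filter. Bins wholly inside genes and all tested bins were both gained at 6.06%. In limma, 2947 bins (6.06% of those tested) were gained and 13 (0.0267%) were lost, and without adjustment 12276 (25.3%) were higher and 114 (0.235%) lower at p under 0.05. Both day 7 libraries lay above both day 0 libraries in 26981 bins (55.5% of those tested), and below them in 1214 (2.5%). The median change was 3.08 points over the tested bins and 0.752 points without the filter, over 79393 bins with any coverage. After division by called length 6502 bins were higher and 3327 lower. Of all 114949 bins, 40.1% and 41.1% held some coverage at day 7, against 24.9% and 18.7% at day 0. Bins with at least 50% coverage numbered 46 and 49 at day 7, against 180 and 2 at day 0. Day 7 lists thus reached more bins, mostly at low coverage, and the day 0 library of like pileup held more densely covered ones. Leaving out day 7 replicate 2 left 94 gained bins and leaving out either day 0 library left 0.

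Gained bins mostly had no called coverage at day 0. Of the 2947, 1879 (63.8%) had none in either day 0 library, and 44.0% had none in the 4 untreated parental libraries defined below. Bins without coverage were common, as only 24.9% and 18.7% of all 114949 bins, tested or not, held any at day 0. Neither share was computed over all tested bins, so they are not read as a trait of the gained ones. The median of all 2947 was 11.95% at day 7 and 0% at day 0. The bins were called from these same day 0 values, so part of this contrast was set by the choice. Bins outside protein-coding genes were gained most often, with 1448 of 18547 (7.81%) called. Bins wholly inside genes followed with 797 of 13159 (6.06%), and bins partly inside genes had 702 of 16901 (4.15%). Mean coverage of bins outside genes was 6.78% and 8.03% at day 7, against 4.10% and 1.88% at day 0, a ratio of means of 2.48. For bins partly inside genes it was 9.32% and 10.2% at day 7, against 7.85% and 4.45% at day 0, a ratio of 1.59.

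All 114949 bins, without the filter on mean coverage, were grouped by their mean coverage in the 4 untreated parental libraries. These were the 2 day 0 libraries of the dTAG parental line and the 2 libraries of the parental line of the NSD2 knockout clones. In the 87119 bins with under 1% there, clone 8 had a mean of 0.931% and 1.28% at day 7, against 0.0666% and 0.0346% at day 0. In the 12975 bins of 1% to 5% parental coverage it had 5.87% and 6.85% at day 7, against 3.06% and 1.46% at day 0. In the 11667 bins of 5% to 20% it had 11.6% and 12.5% at day 7, against 11.0% and 5.402% at day 0. In the 3180 bins of 20% to 50% it had 27.0% and 27.4% at day 7, against 32.0% and 18.1% at day 0. The days were apart in the classes up to 20% and overlapped in the class of 20% to 50%. Only 8 bins had more than 50% parental coverage. The median change of a bin was 0 points in the lowest class.

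**Figure D3:**
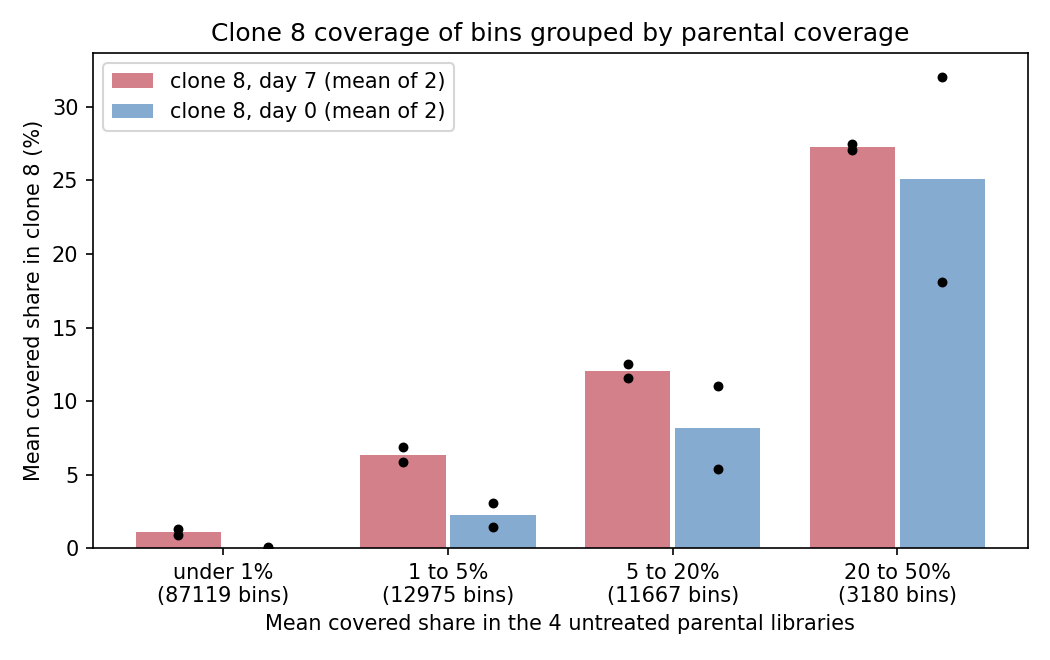
Mean H3K27me3 coverage (%) of all autosomal 25-kb bins in clone 8 at day 7 and day 0 (bars, means of 2 libraries; dots, single libraries), by mean coverage in the 4 untreated parental libraries. Day 7 exceeds day 0 in the class under 1% (means 1.10% and 0.0506%), and in the class of 20% to 50% the day 7 dots lie between the day 0 dots.

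The change differed between chromosomes. On chromosome 18, which has 3.34 protein-coding genes per Mb in the annotation, tested bins had a mean of 5.78% and 7.02% at day 7, against 2.28% and 1.08% at day 0, a ratio of means of 3.81, and 8.08% of bins were gained. Chromosome 2 had 8.59% of its bins gained and chromosome 5 had 8.10%. On chromosome 19, with 24.5 genes per Mb, the means were 11.1% and 11.5% at day 7, against 14.2% and 8.01% at day 0, a ratio of 1.02, and 0.528% of bins were gained. Chromosome 22 had 2.21% gained. Chromosomes with few genes varied: chromosome 13, with 2.94 genes per Mb, had 3.49% gained, and chromosome 21, with 4.22 genes per Mb, had 2.53%. On chromosomes 19 and 22 the day 0 library of like pileup exceeded both day 7 libraries.

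**Figure D4:**
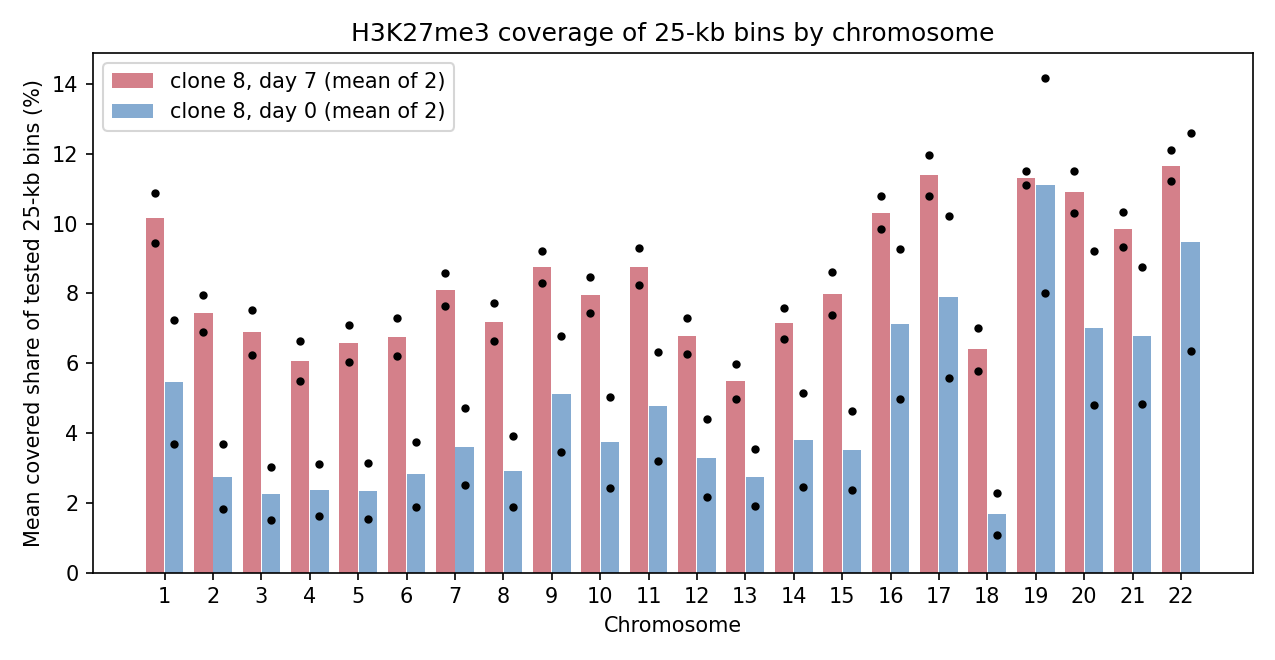
Mean H3K27me3 coverage (%) of tested 25-kb bins on each autosome in clone 8 at day 7 and day 0 (bars, means of 2 libraries; dots, single libraries). The bars differ by a ratio of 3.81 on chromosome 18 and of 1.02 on chromosome 19.

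Most called bins had no called neighbour. Runs were counted over called bins only, and an uncalled or untested bin ended a run. They therefore do not give the extent of the gain. In 55.5% of tested bins both day 7 libraries lay above both day 0 libraries. That share is not the extent either, since bins could pass the filter through treated and knockout libraries. The 2947 gained bins formed 2547 runs of adjacent bins, of which 2210 were a single bin. The longest run had 6 bins (chr7:142600001-142750000), in the T cell receptor beta locus, with PRSS1, a trypsinogen gene, at its edge. Its coverage was 14.1% and 13.5% at day 7, against 1.13% and 0.66% at day 0. In clone 11 it was 13.4% and 12.1% at day 7 and 1.07% and 0.50% at day 0. The dTAG parental line had 1.35% and 0.577% at day 7 and 1.69% and 0.426% at day 0.

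There were 9 runs of 4 bins, from which 4 are given. The late cornified envelope cluster (chr1:152775001-152875000), whose genes LCE1B to LCE1F, LCE6A and LCE7A serve the outer skin barrier, had 12.4% and 19.3% coverage at day 7, against 0.847% and 0% at day 0. A run at M1AP, a meiosis gene, and SEMA4F, a semaphorin gene (chr2:74575001-74675000), had 12.3% and 17.5% at day 7, against 0.751% and 0.666% at day 0. A run holding the olfactory receptor gene OR13A1 (chr10:45225001-45325000) had 9.17% and 10.8% at day 7, against 0.598% and 0% at day 0. A run without a protein-coding gene (chr2:176800001-176900000) had 10.8% and 15.6% at day 7, against 0.752% and 2.32% at day 0. In clone 11, where 23.3% of all tested bins were gained, the call was made in 5 of the 6 bins at the T cell receptor beta locus and in 4 of 4 at the cornified envelope cluster and at OR13A1. It was made in 3 of 4 at M1AP and SEMA4F and in 2 of 4 of the run without a gene.

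The largest bin losses lay outside protein-coding genes. The bin chr1:5550001-5575000 had 12.7% and 11.2% coverage at day 7, against 36.01% and 29.3% at day 0 (limma adjusted p = 0.0414). The bin chr22:47900001-47925000 had 4.98% and 8.33% at day 7, against 28.1% and 23.1% at day 0 (limma adjusted p = 0.0236). The bin chr1:30425001-30450000 had 10.5% and 15.1% at day 7, against 33.0% and 24.9% at day 0 (limma adjusted p = 0.0474). The bin chr15:25050001-25075000 was 0% covered in both day 7 libraries, against 16.8% and 5.50% at day 0 (limma adjusted p = 0.0321). The bin chr13:22950001-22975000 was 0% covered in both day 7 libraries, against 13.3% and 8.30% at day 0 (limma adjusted p = 0.0387). The first 3 kept part of their coverage at day 7 and the other 2 had none.

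Clone 11, which shares no library with clone 8, moved in the same direction in most of these genes. Over all tested genes the median change was 1.46 points in clone 8, 2.29 points in clone 11 and 0.148 points in the dTAG parental line. Of the 186 genes gained in clone 8, 185 had a positive change in clone 11, against 80.4% of all tested genes. Both clone 11 day 7 libraries lay above both of its day 0 libraries in 179 of the 186, against 55.4% of all tested genes. Of the 186, 102 had a positive change in the parental line, a share that was not computed over all tested genes and is not read as high or low. Their median change was 9.84 points in clone 8, which chose them, 9.37 points in clone 11 and 0.0248 points in the parental line.

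In clone 11, 1570 genes (11.2%) were gained and 5 (0.0358%) lost in limma. The 153 genes gained in both clones were 82.3% of the clone 8 list and 9.75% of the clone 11 list. In the parental line 0 genes (0%) were called in either direction in limma, and 292 had an unadjusted p under 0.05. Among bins, 11335 (23.3%) were gained and 12 (0.0247%) lost in clone 11, and in limma 0 (0%) were called in the parental line, where 265 had an unadjusted p under 0.05. The 2244 bins gained in both clones were 76.1% of the clone 8 list and 19.8% of the clone 11 list. In clone 11 pileup moved with day, at 2.17 and 2.48 at day 7 against 1.24 and 1.29 at day 0. In the parental line pileup was 1.93 and 1.24 at day 7 against 2.22 and 1.11 at day 0, and the days overlapped there, as in clone 8. With pileup as a covariate, limma called 2 genes with a larger and 0 with a smaller change in clone 8 than in the parental line, and 0 with a larger and 1 with a smaller change than in clone 11. These counts equal those without the covariate.

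The difference between lines was tested directly. In limma, 2 genes (0.0143%) had a larger change in clone 8 than in the parental line and 0 (0%) a smaller one, and at an unadjusted p under 0.05 the counts were 997 and 127. They were FOLR2 and BPIFC. FOLR2 changed by 45.3 points in clone 8 and 4.08 points in the parental line, where coverage was 8.16% and 0% at day 7 and 0% in both day 0 libraries. BPIFC (chr22:32413845-32464446), of the family of lipid-binding defence proteins and named after its values were seen, had 14.1% and 14.2% coverage in clone 8 at day 7, against 0.573% and 0.737% at day 0. Of the bins, 0 (0%) differed from the parental line in limma, with 4907 larger and 103 smaller at an unadjusted p under 0.05. For all gained genes but these 2, the clone 8 change was thus not shown to differ from the parental change at the adjusted threshold in this fit. That count depended on the processing: in a fit of the 8 libraries of these 2 lines alone, 334 genes changed more in clone 8 and 10 less, and after division by called length 123 changed more and 150 less.

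Against clone 11, 0 genes (0%) changed more in clone 8 and 1 (0.00715%) changed less in limma, with 61 and 228 at an unadjusted p under 0.05. That gene was ATP6V1G3 (chr1:198523222-198540945), a kidney subunit of the vacuolar proton pump, named after its values were seen. Its coverage was 1.66% and 3.13% in clone 8 at day 7, against 0% in both day 0 libraries, and 14.5% and 15.7% in clone 11 at day 7, against 0% in both day 0 libraries. Of the bins, 0 (0%) differed between the clones in limma, with 64 larger and 1070 smaller in clone 8 at an unadjusted p under 0.05.

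**Figure D5:**
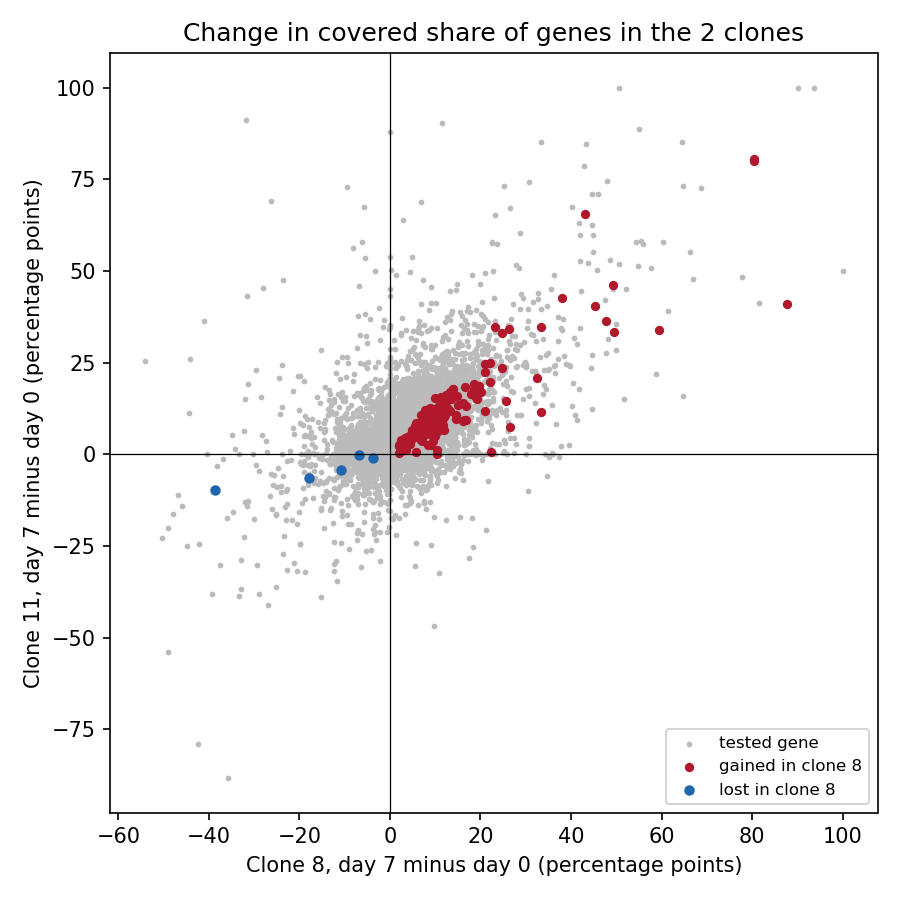
Change in gene coverage at day 7 minus day 0 (percentage points) in clone 11 against clone 8, 1 dot per tested gene, with genes gained or lost in clone 8 coloured. Of the 186 gained genes, 185 lie above 0 on the clone 11 axis.

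The named genes were also read in clone 11 and the parental line. GIMAP7 changed by 24.8 points in clone 8 and 23.6 points in clone 11, and CTSS by 22.1 and 24.8 points. HTR3C changed by 33.4 points in clone 8 and 11.6 points in clone 11 (limma adjusted p = 0.373 in clone 11). The difference of 21.8 points between the clones did not pass the test (limma adjusted p = 1). Its parental coverage was 26.8% and 18.3% at day 7 and 17.8% and 10.2% at day 0, above the 3.54% and 0% of clone 8 at day 0. FABP1 was likewise 16.1% and 0% covered in the parental line at day 7 and 19.8% and 21.1% at day 0. HPCAL4 had 26.1% and 30.2% parental coverage at day 7 and 40.5% and 37.0% at day 0, above the 20.5% and 11.0% of clone 8 at day 0. For FABP1, HTR3C and HPCAL4 the untreated clone thus stood below the untreated parental line. Of the losses, SLC31A2 had 4.55% and 3.99% parental coverage at day 7 and 4.36% and 2.96% at day 0, below the 14.3% and 13.2% of clone 8 at day 0. ZNF134 had 0.687% and 0% parental coverage at day 7 and 1.86% and 0% at day 0.

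Later times of clone 8 share its day 0 libraries, so each change is given beside the others without a test of likeness. FOLR2 changed by 45.3 points at day 7, 37.1 at day 14 and 40.5 at day 21. FABP1 changed by 49.5, 43.6 and 48.2 points at days 7, 14 and 21. CD8A changed by 14.6, 12.1 and 21.4 points and KCNAB1 by 10.6, 11.4 and 14.0 points at the same times. IL22 changed by 20.9, 9.70 and 10.9 points and TMEM202 by 25.7, 11.1 and 15.3 points. SLC31A2 changed by -10.7, -10.0 and -10.4 points. All changes from these 7 genes kept the sign of day 7. The day 14 lists covered 133 and 78.3 Mb and the day 21 lists 153 and 111 Mb, with pileup of 2.53 and 1.71 at day 14 and 2.84 and 2.35 at day 21.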

How the data were processed

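H3K27me3 peak lists of 30 libraries were used, and 10 libraries (2 with IgG, 4 for H3K27ac, 4 for H3K4me3) were not analysed here. The submitters' processing notes name fastp 0.24.0, Bowtie2, SAMtools, Picard, MACS3 3.0.2, deepTools 3.5.1, DESeq2 and ChIPseeker 1.42.1, with no roles, and build hg38. No source used here gives the calling options or controls. Lists were called per library. The deposited score of each peak is 10 times its -log10 q. The deposited fold is a ratio of signal to the background of the caller. Each list of the authors also gives -log10 p and -log10 q, the lowest -log10 q being 1.00 to 1.01. These are the authors' values for single peaks, used to filter peaks within a list and to estimate depth.

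Depth is not listed. Background pileup was solved from fold and p of the shortest 2% of peaks (tolerance 0.002 in -log10 p, window 0.01), assuming a genome-wide background and a pseudocount of 1, so it is an estimate. Shallow libraries may miss marked regions.

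Peaks were merged and intersected with RefSeq genes of GRCh38.p14, the assembly of hg38. limma 3.58.1 (R 4.3.3, data.table package, 1.17.8) was fitted over all 30 libraries with 1 mean per group, eBayes with a trend and Benjamini-Hochberg adjustment over all tested features at 0.05. The fit pools the spread between the 2 libraries of each group, and the median SD of clone 8 was 1.19 points on both days. For single values per library, exact permutation tests (two-sided) were used. Coverage was computed in Python 3.11.15 with pandas 2.3.3 and numpy 2.4.6, tests with scipy 1.17.1 and plots with matplotlib 3.10.9, and the fit was tested on simulated data.

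Members and the 17 gene lists were chosen with earlier results of these data known. Named genes were the 12 largest gains and up to 10 largest losses among called genes of at least 5 kb with groups that did not overlap, NSD2, and the 2 list members with the smallest adjusted p. Named bins were the 5 longest runs of gained bins and the 5 largest losses. Only 3 losses met the rule, and the 9 runs of 4 bins, tied in length, were taken in the order of their chromosome names. A gene that the rule names is not reported here.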

Additional observations from a re-analysis of the deposited data

Results flagged for a closer look

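In 3 genes the change in clone 8 differed from the change in another line by the test of the difference itself (limma, adjusted over 13977 genes). FOLR2 changed by 41.2 points more in clone 8 than in the dTAG parental line (adjusted p = 0.00133), and the difference was 37.1 to 45.3 points, with adjusted p between 0.00129 and 0.0230, when any 1 of the 8 libraries was left out. It was 22.6 points with adjusted p = 1 among peaks with a -log10 q of at least 5. In lists shortened to equal length it was 22.6 points (limma adjusted p = 0.918). With gaps up to 3 kb joined it was 41.2 points and was not called. BPIFC changed by 14.8 points more in clone 8 than in the parental line (adjusted p = 0.00133), and by 24.7 points with adjusted p = 1 when gaps up to 3 kb were joined. ATP6V1G3 changed by 12.7 points less in clone 8 than in clone 11 (difference -12.7, adjusted p = 0.000504), and 0 of the 8 libraries, when left out, ended that call. Both day 0 groups of ATP6V1G3 were listed at 0, and the adjusted p was 0.0795 in a fit of the clone 8 and clone 11 day 7 and day 0 libraries alone. All 3 differences are between 2 libraries per group.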

How the results depend on the processing

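The share of called length inside genes kept its direction, and of the called named genes only CD8A reversed under any alternative run, but counts of calls moved widely. Against 186 genes gained and 5 lost, division by called length gave 1004 and 1444, lists shortened to equal length 65 and 64, a -log10 q of at least 5 gave 0 and 0, a fold of at least 4 gave 1 and 3, a pileup covariate 287 and 30, gaps up to 3 kb joined 5 and 0, no filter 3 lost, only the compared groups 0 and 0, and the pair of like pileup, chosen after seeing the data, 38 and 8. Leaving out 1 library gave 2 to 353 gained and 1 to 8 lost. Against 2947 bins gained and 13 lost, called length gave 6502 and 3327, shortened lists 246 and 239, the -log10 q limit, the fold limit and only the compared groups 0 and 0 each, the covariate 148 lost, gaps joined 76 and 0, no filter 1338 gained, the like pair 493 and 4, and leaving out 1 library 0 to 3629 and 0 to 3. The replicate block gave 661 genes gained and 18 lost and 5492 bins gained and 52 lost, and the same counts between lines. The labels do not say what a replicate number marks, and same-numbered clone 8 libraries had deviations with a correlation of 0.0923 over 13977 genes, so the numbers were not taken as pairs. Replicate 1 held more peaks than replicate 2 in 15 of 15 groups, and a longer length of peaks with a -log10 q of at least 5 in 15 of 15.

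Against 2 genes with a larger change than in the parental line, division by called length gave 123, -log10 q, fold and gaps 0 each, only the compared groups 334, the like pair 7 and leave-outs 2 to 17; against 0 smaller, called length gave 150, shortened lists 4, only the compared groups 10, the like pair 1 and leave-outs 0 to 2. Against 0 larger than in clone 11, called length gave 1, fold 1, only the compared groups 2, the like pair 5 and leave-outs 0 to 5; against 1 smaller, shortened lists, -log10 q and fold gave 0 each, only the compared groups 11, the like pair 3 and leave-outs 1 to 12.

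The median gene change of 1.46 points became -0.818 by called length, 0.0895 in shortened lists, 0.155 with the -log10 q limit, 0.195 with the fold limit, and 0.428 to 2.796 in leave-outs. It was 0.720 with the pileup covariate, 0.490 in the like pair, 0.663 with no filter and 1.94 with gaps joined. The difference in called length of 50.1 Mb became -0.503 Mb with the -log10 q limit and 1.99 Mb with the fold limit. Overlap shares of 34.3% and 83.1% became 22.0% and 54.5% at a reciprocal 50%. Reversed genes, none of them called except CD8A, were LCOR (-0.245), HOXA3 (-1.47), SLAMF7 (-14.1) and CD44 (-2.59) by called length, HOXA3 (-0.223), GRHL2 (-0.0244) and CD44 (-2.10) in shortened lists, KDM6B (0.474), HOXD13 (-1.05), SLAMF7 (-8.26), GRHL2 (-0.116) and CD44 (-1.61) with the -log10 q limit, KDM6B (0.474) and CD8A (-1.34) with the fold limit, and KDM6B (1.43) in the like pair. The cause was not tested in any of these. With 2 libraries a group, no exact test of a single value can pass 0.05, and estimated depth limits which weak regions were listed.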
